A study of Mus musculus with 6 samples.

Results

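Control epithelial cluster 5 was a group of 168 uterine epithelial cells from adult mice that had received only the oil vehicle after birth. Its members were the cells to which the authors' own clustering of the control (CO) epithelium gave the number 5, with a column in the table of counts, and all 168 cells of that number had one. They made up 6.50% of the 2583 clustered CO cells with counts (exact 95% interval 5.58 to 7.52%) and 8.81% (7.57 to 10.2%) of the 1908 cells in the 9 clusters taken as luminal epithelium (LE), namely 0, 1, 2, 5, 6, 7, 9, 10 and 11. The study's own LE group also held cluster 4, its luminal progenitors, which was left out here. The authors' annotation named all 168 cells epithelial. The comparison used throughout was with the 1740 cells of the other 8 luminal clusters.

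The study set uteri of mice exposed to diethylstilbestrol (DES), a synthetic estrogen, beside uteri of vehicle-treated controls. It sought the mechanisms behind the uterine cancer that follows exposure, and compared gene expression at an age when many exposed animals carry adenocarcinoma. Female CD-1 pups, an outbred stock, received corn oil or DES at 1 mg/kg/day under the skin on neonatal days 1 to 5, and uteri were taken at 12 months of age. The CO mice were chosen in estrus because DES mice remain in it. Cells of 2 CO uteri went into a single pool and those of 4 DES uteri into another, so that 1 single-cell library stood for each condition, and 2 CO and 2 DES uteri also gave 1 frozen section each for spatial transcriptomics, the DES uteri having been chosen to contain adenocarcinoma. Which of the 2 pooled CO mice a cell came from was not recorded in the sources used here, so a difference between clusters and a difference between the 2 mice cannot be told apart.

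The luminal epithelium is the single layer of cells that faces the uterine cavity, receives the embryo and forms the first barrier against microbes. Its cells respond to estrogen and progesterone, secrete fluid and antimicrobial proteins, and can switch on interferon-stimulated and antigen presentation genes. Neighbouring glands arise from it and carry their own secretory program, marked by the transcription factor Foxa2.

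Expression in a group of cells was expressed as the summed unique molecular identifiers (UMIs, one for each RNA molecule caught) of a gene scaled to the group's total (CPM, counts per 1e6 UMIs), with an exact 95% interval for counting error only. Cluster 5 held 6585694 UMIs and the other luminal clusters 54262944. Its cells had a median of 30226 UMIs (range 11655 to 112812), 5146 genes and 10.1% mitochondrial UMIs, against 24484 UMIs, 4744 genes and 10.7% in the other luminal cells. The clusters were formed on these same counts and there was 1 library, so differences between clusters are described and none is tested. The CO and DES libraries shared 180 cell barcodes, none of them in cluster 5.

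The luminal label held for cluster 5. Cyp21a1, which encodes a steroid 21-hydroxylase and has a near-identical pseudogene whose reads may not be separable, stood at 136 CPM (127 to 145) in cluster 5 and at 103 CPM in the other luminal clusters. Cdc42ep2, an effector of the GTPase Cdc42, stood at 107 CPM (98.9 to 115) against 87.4. In the gland clusters 3, 8, 13 and 14 neither gene passed 10.1 CPM, so both markers were at luminal level, while the proposed stem cell cluster 12 also held 114 CPM of Cyp21a1. The study had named 8 genes as relatively specific to LE on these same cells, so that their level is no independent evidence, and they summed to 1082 CPM in cluster 5 and 499 to 897 CPM in the other luminal clusters. Pla2g2e, a secreted phospholipase A2, and Itgam, an integrin chain best known from myeloid cells, were 2.68 (2.54 to 2.82) and 1.95 (1.83 to 2.07) times as high in cluster 5, whereas Lrrc26 was at 0.793 and Lrmp at 0.781 of the level in the other luminal clusters. All 8 passed the floor described next, and 2 of them lay past 1.5-fold higher (4.29% of all genes) and none past it lower.

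Markers of other cells were low or within the range of the other luminal clusters. The basal keratin gene Krt5 and the basal factor Trp63 had no UMI in cluster 5 and neither had the pericyte marker Rgs5. The 9 stromal markers summed to 370 CPM in cluster 5 and 391 CPM in the other luminal clusters, and the 8 lymphocyte markers to 29.6 and 49.4 CPM. The 9 myeloid markers were somewhat higher in cluster 5, at 62.6 against 51.5 CPM (ratio 1.21, 1.09 to 1.35). By cluster, the other luminal cells held 34.8 to 117 CPM of them. Among the other luminal clusters the lymphocyte sum ran from 26.2 CPM in cluster 0 to 622 CPM in cluster 9. Globin RNA, which in droplets comes from red cells, was caught in every cell of both groups and was at 1164 and 1243 CPM for Hba-a1 and Hbb-bs together.

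Among the 5663 genes with at least 20 CPM in cluster 5 or in the other luminal clusters, 243 (4.29%) were at least 1.5-fold higher in cluster 5 and 131 (2.31%) at least 1.5-fold lower. The median ratio of all 5663 genes was 0.953, with a middle 50% of genes from 0.869 to 1.06. Treated in the same way against the remaining luminal clusters, the other 8 clusters had between 5 higher genes (cluster 1) and 517 (cluster 7). Across these genes the log expression of cluster 5 was most like that of cluster 0 (Pearson r = 0.969 over 5663 genes of 1 library) and next most like that of cluster 9 (0.957). It was least like that of gland cluster 14 (0.763), and its r with the pooled DES epithelium was 0.855.

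One difference of cluster 5 followed a chromosome. This arrangement was examined after the gene ratios had been seen. Of the 258 measured genes on chromosome 15, 250 (96.9%) were higher in cluster 5 than in the other luminal clusters, with a median ratio of 1.37 and a middle 50% from 1.24 to 1.5. On each of the other 19 chromosomes with measured genes the median ratio lay between 0.908 and 0.975, and of their 5159 genes 33.7% were above 1. The genes of chromosome 15 were 4.76% of the genes placed on the annotation, and 63 of the 243 genes past 1.5-fold higher (25.9%) lay there.

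**Figure D1:**
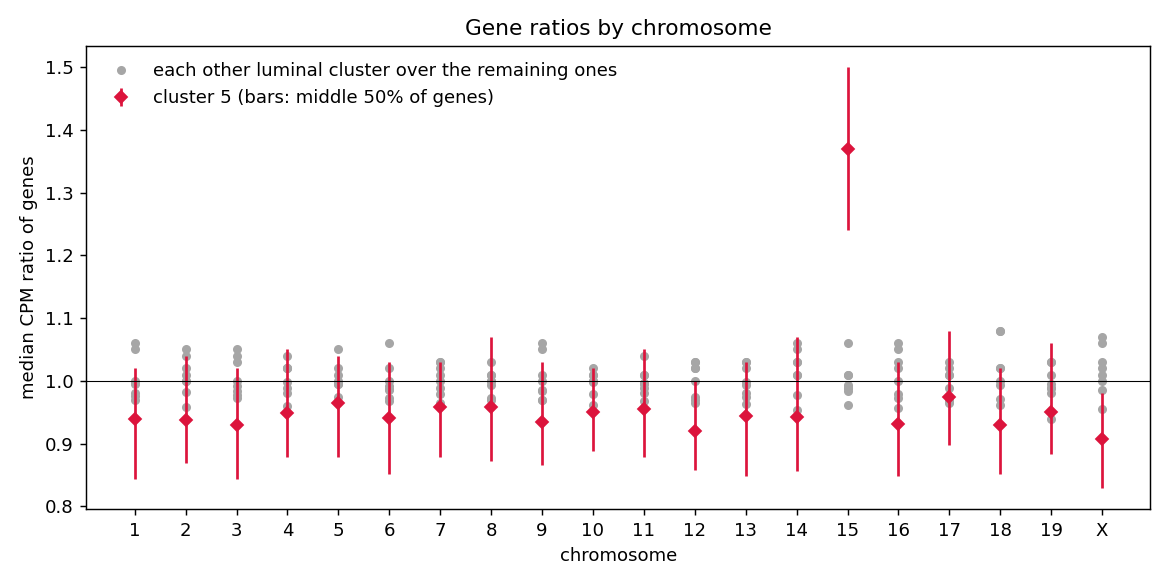
Median CPM ratio of the genes of each chromosome (horizontal axis). Red diamonds give cluster 5 over the other luminal clusters, with bars over the middle 50% of genes. Grey points give each other luminal cluster over the remaining ones, with cluster 5 left out. Cluster 5 stands at 1.37 on chromosome 15 and between 0.908 and 0.975 on all others, while the other luminal clusters lie between 0.961 and 1.06 on chromosome 15.

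The difference ran along the whole of the measured chromosome. In 11 successive windows of 10 Mb (megabases of DNA) the median ratio lay between 1.18 and 1.40, and in the 5 windows with at least 20 genes between 1.31 and 1.40. The first measured gene, Ghr, begins at 3317760 and the last, Itga5, at 103344286 on chromosome 15 of the GRCm38 build. Of the 258 genes, 171 (66.3%) had their highest level among the 9 luminal clusters in cluster 5, which was so for 402 of 5159 genes (7.79%) on the other chromosomes and for 10.6% of all placed genes.

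Genes with no shared function but a shared chromosome differed alike. Of the cytosolic ribosomal protein genes, 73 elsewhere in the genome had a median ratio of 1.00, and the 4 on chromosome 15 one of 1.47. Rpl37 stood at 5643 CPM against 3769, a ratio of 1.5 (1.48 to 1.51), and Rpl8 at 3798 CPM against 2482, a ratio of 1.53 (1.51 to 1.55). Rpl3 was the smallest of the 4, at 1.11 (1.09 to 1.13). Among genes of oxidative phosphorylation, the 5 on chromosome 15 had a median of 1.46 and the 71 elsewhere one of 0.953. The simple epithelial keratins Krt8, Krt18 and Krt7, which lie together near the end of chromosome 15, were at ratios of 1.30, 1.37 and 1.2. The exceptions in the other direction past 1.5-fold were Krt84, a hair-type keratin gene, at 27.8 CPM against 159, and Ghr, the growth hormone receptor, at 8.35 CPM against 36.0.

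Single cells showed the same shift. Chromosome 15 genes gave a median of 6.16% of the placed UMIs of a cluster 5 cell (range 4.45 to 8.05%) and 4.31% in the other luminal cells (3.39 to 7.08%), and 162 of the 168 cells (96.4%) lay above 4.89%, the 95th percentile of the other luminal cells. No cell of cluster 5 lay at or below the other luminal median. With only genes under 1000 CPM the medians were 5.95 and 4.15%, a gap of like size. In the DES epithelium the median was 4.32%.

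**Figure D2:**
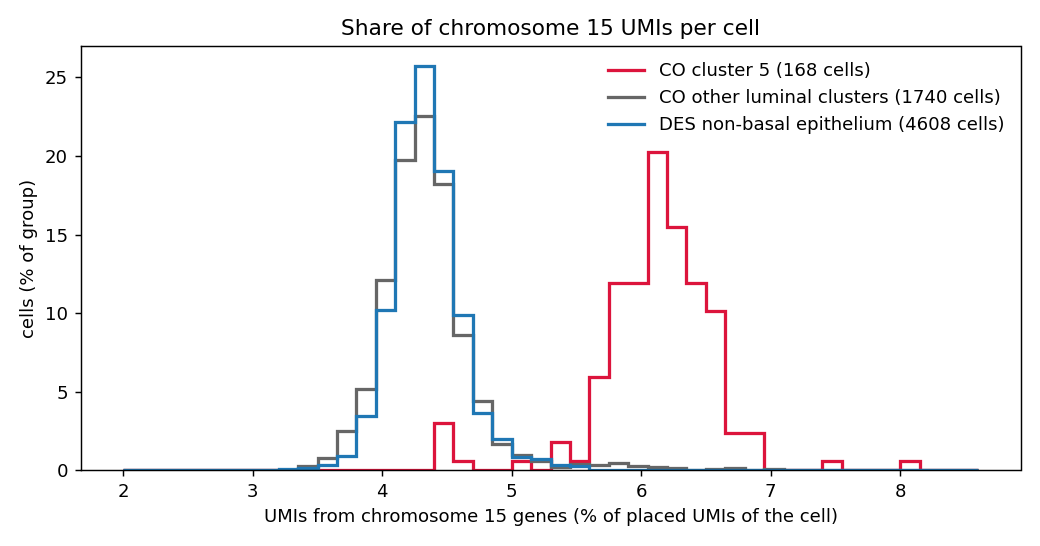
Distribution over cells of the share of a cell's placed UMIs that came from chromosome 15 genes (horizontal axis, percent), as percent of each group's cells, for CO cluster 5, the other CO luminal clusters and the DES non-basal epithelium. Cluster 5 centres on 6.16% and the other groups on 4.31% and 4.32%, and the 5th percentile of cluster 5 (5.37%) lies above the 95th percentile of the other luminal cells (4.89%).

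High shares were not found in cluster 5 alone. At or above 5.37%, the 5th percentile of cluster 5, lay 40 of the other luminal cells (2.30%), 85 of all other clustered CO cells (3.52%) and 28 of 4608 DES epithelial cells (0.608%). Cycling cluster 4 held 20 of its 187 cells (10.7%) in that range, gland cluster 14 held 3 of 28 (10.7%) and cluster 12 held 7 of 71 (9.86%). The 40 luminal cells outside cluster 5 had 824 CPM of Ly6a (766 to 885) and 99.7 CPM of Cdo1 (80.3 to 122), both between the levels of cluster 5 and of the rest. Also between them were Pla2g2e at 183 CPM (286 in cluster 5, 105 in the rest) and Kap at 142 CPM (75.6 and 607). Ly6a lies on chromosome 15, so its level was in part set by how these cells were picked. Their Cmah, at 3.29 CPM (0.678 to 9.60), was near the rest, as were Fam13a at 9.86 CPM against 10.1 and Ifit1 at 55.9 against 53.5. DNA was not measured in these cells, and the part of the cluster assignment itself in these shares was not tested.

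Taking only genes that reached 50 CPM on either side, the 15 with the highest ratios ran from Cmah at 26.3 to Ifit1 at 2.62, and the next, just outside the list, was the phosphatase gene Dusp1 at 2.59. In all 15, cluster 5 was the highest of the 9 luminal clusters. Basp1, Ndrg1 and Ly6a of these lie on chromosome 15, and their ratios were above that chromosome's middle 50%.

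Cmah, at chr13:24327404-24477377, encodes the hydroxylase that turns the sialic acid Neu5Ac into Neu5Gc. It stood at 64.1 CPM (58.1 to 70.5) in cluster 5 and 2.43 CPM (2.04 to 2.88) in the other luminal clusters, a ratio of 26.3 (21.6 to 32.3). The other luminal clusters lay between 1.33 and 9.15 CPM and the gland clusters at or under 0.494 CPM, so cluster 5 was the highest of the 15 CO clusters. With each cell thinned to 3000 UMIs, 11.3% of cluster 5 cells (6.95 to 17.1%) and 0.696% of other luminal cells (0.360 to 1.21%) had a Cmah UMI. Stromal cells, which serve here as background with a median of 8726 UMIs, had one in 0.0767%. Without thinning the shares were 47.0, 4.66 and 0.603%. Within the cluster the RNA was uneven, with 51.2% of its UMIs in the 17 richest cells. CO lymphocytes held 29.8 CPM of Cmah, from 67 UMIs, less than cluster 5 but more than the other luminal clusters.

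Ly6a, at chr15:74994877-74998031, encodes the surface protein Sca-1 and is a well-known interferon-inducible gene, although its close relatives make the assignment of reads within the family uncertain. It was the most abundant of the 15, at 1579 CPM (1548 to 1609) against 521 CPM (515 to 527), a ratio of 3.03 (2.96 to 3.1). The other luminal clusters ranged from 126 to 725 CPM, while gland clusters 3, 8 and 14 lay at 1136, 1061 and 1211 CPM, between the luminal clusters and cluster 5, and gland cluster 13 at 43.8 CPM, below them all. The neighbouring family gene Ly6e was at 1366 CPM against 670.

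Basp1, a membrane-bound signalling protein gene at chr15:25363277-25413764, stood at 91.3 CPM (84.1 to 98.9) against 7.28 CPM, a ratio of 12.5 (11 to 14.3). The highest other luminal cluster was 11 at 30.8 CPM and gland cluster 13 held 84.2 CPM. CO lymphocytes held 124 CPM of Basp1, more than cluster 5, and CO stromal cells 51.8 CPM. Fam13a was at 80.5 CPM against 10.1 in luminal cells but at 161 and 332 CPM in gland clusters 3 and 8, and 75.3% of its UMIs in cluster 5 came from 17 cells. Cdo1, the cysteine dioxygenase of taurine synthesis, was at 180 CPM (170 to 190) against 39.6. In thinned cells 39.9% of cluster 5 (32.4 to 47.7%), 10.0% of other luminal and 5.91% of stromal cells had a Cdo1 UMI, and without thinning 95.2, 52.5 and 15.8%. Peg10, an imprinted gene derived from a retrotransposon, was at 131 CPM against 37.4, and Ppp1r14d, an inhibitor of protein phosphatase 1, at 51.5 against 12.4.

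Pla2g2e at 286 CPM (273 to 299), Tmem54 at 73.8 CPM and the proteoglycan core gene Srgn at 131 CPM stood 2.15, 2.84 and 1.76 times above the highest other luminal cluster. Pla2g2e was found in 54.8% of thinned cluster 5 cells (46.9 to 62.4%), 26.2% of other luminal cells and 2.69% of stromal cells. Without thinning the shares were 98.2, 80.3 and 7.84%. Srgn is more a stromal and immune gene, at 808 CPM in CO stroma and 1012 CPM in lymphocytes, and its level in cluster 5 was below both. En2, a homeobox gene that the study counted among its proposed stem cell genes, was under the floor but had 53 UMIs in cluster 5 against 23 in the much larger rest, or 8.05 against 0.424 CPM. The proposed stem cell markers Aldh1a1, Lgr5 and Axin2 did not share this difference. They summed to 6.23 CPM in cluster 5 and 5.16 CPM in the other luminal clusters, and 0 cells of cluster 5 held at least 3 of their UMIs.

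**Figure D3:**
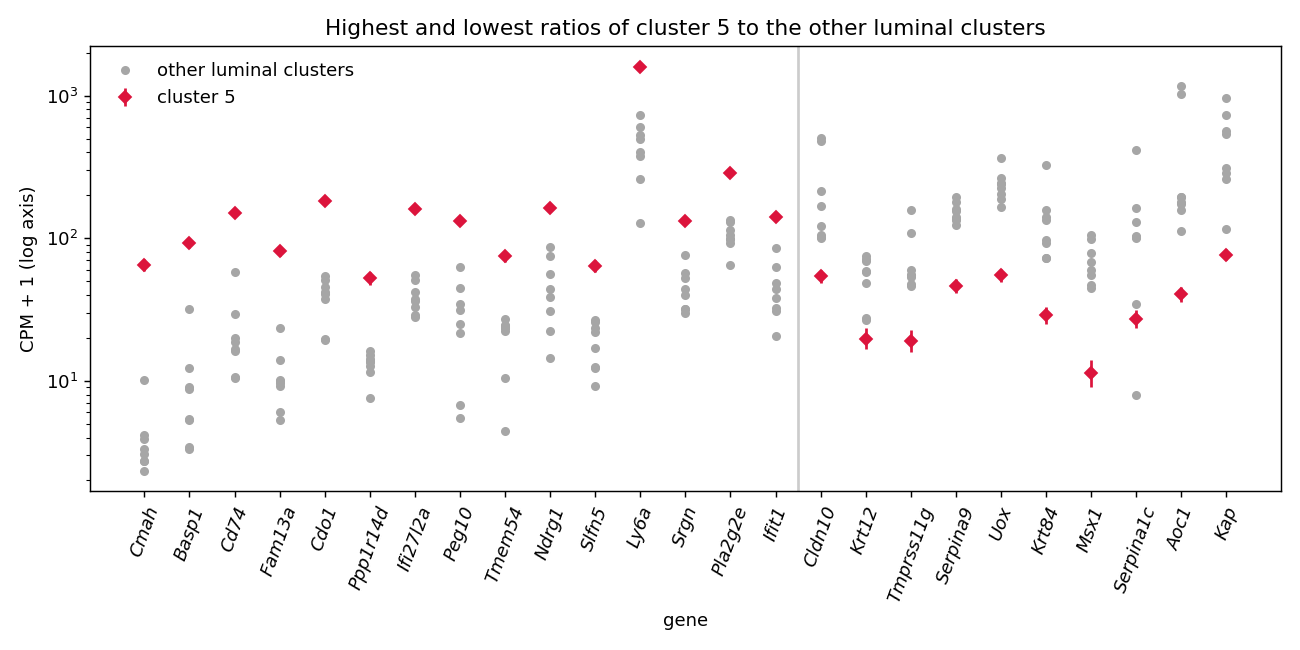
Expression (CPM + 1, log axis) of the 15 genes with the highest ratios and the 10 with the lowest, in cluster 5 (red diamonds with exact 95% counting intervals) and in each of the other 8 luminal clusters (grey points). Cluster 5 lies above every other luminal cluster for the 15 genes and below all of them for 9 of the 10, with Serpina1c lower still in cluster 11.

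Interferon-stimulated genes were a second group that stood higher in cluster 5, and none of those listed and measured lies on chromosome 15, where the interferon-inducible Ly6a, outside the list, does lie. Interferons bind surface receptors, activate transcription factors, Stat2 and Irf9 among them, and these switch on antiviral genes through a short repeated GAAA element. All 22 listed genes that passed the floor had ratios above 1, and 11 were past 1.5-fold higher (against 4.29% of all genes) with none past it lower. The median ratio was 1.47, against 0.953 over all genes. Summed, the list stood at 1657 CPM in cluster 5 and 1060 CPM in the other luminal clusters, which ranged from 709 to 1205 CPM. This list and those below, with their members, were chosen with earlier results of these data known. Their shares beside those of all genes therefore describe the cluster and test nothing.

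Among the effectors, Ifit1, which binds foreign RNA, was at 140 CPM (131 to 149) against 53.6, Isg15, a ubiquitin-like modifier, at 70.3 CPM against 29.4, and Oasl2 at 133 CPM against 67.3. The regulators differed less evenly. Irf7, the factor that amplifies interferon output, was at 96.9 CPM against 43.0, a ratio of 2.26 (2.06 to 2.46), whereas Stat2 was at 1.30 and Irf9 at 1.18. Slfn5 at 62.9 CPM against 20.1 and Ifi27l2a at 159 CPM against 40.8, both known as interferon-inducible and outside the list, were among the 15 highest genes. Both were higher still in some other CO cells, with 689 CPM of Ifi27l2a in lymphocytes and 380 CPM of Slfn5 in endothelial cells. Genes of the Oas, Oasl and Ifi200 families have close relatives, so their values are less certain. Cell by cell, 145 of the 168 cells (86.3%) summed above the other luminal median, at a median of 1523 CPM against 941.

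The sequences are shown because the group is known for the GAAA repeat in its promoters. The core GAAANNGAAA, or TTTCNNTTTC on the other strand, where N is any base, was searched in the 250 bases before and 50 after each RefSeq start in GRCm38.p6. It was present in 14 of the 23 listed interferon-stimulated genes with a sequence (60.9%) and in 1079 of all 27025 genes (3.99%). A match describes letters only. The 4 promoters printed hold the matches in capitals, overlapping ones run together. Isg15 (chr4:156200769-156201068, minus strand) has 3 and Ifit1 (chr19:34640639-34640938, plus strand) has 2. Slfn5 (chr11:82951852-82952151, plus strand) and the antigen presentation gene B2m (chr2:122147437-122147736, plus strand) have 1 each.
Isg15: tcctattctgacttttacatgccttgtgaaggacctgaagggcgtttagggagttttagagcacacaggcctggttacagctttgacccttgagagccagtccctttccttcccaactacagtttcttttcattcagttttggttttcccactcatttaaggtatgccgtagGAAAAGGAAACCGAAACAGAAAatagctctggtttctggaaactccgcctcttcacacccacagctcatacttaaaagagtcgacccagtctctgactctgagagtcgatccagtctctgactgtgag
Ifit1: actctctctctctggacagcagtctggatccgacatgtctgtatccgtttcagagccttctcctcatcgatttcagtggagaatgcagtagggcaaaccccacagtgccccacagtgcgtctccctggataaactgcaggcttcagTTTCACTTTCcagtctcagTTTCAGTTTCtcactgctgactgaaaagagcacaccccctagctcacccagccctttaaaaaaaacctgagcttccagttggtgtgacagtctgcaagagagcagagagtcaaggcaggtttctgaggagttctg
Slfn5: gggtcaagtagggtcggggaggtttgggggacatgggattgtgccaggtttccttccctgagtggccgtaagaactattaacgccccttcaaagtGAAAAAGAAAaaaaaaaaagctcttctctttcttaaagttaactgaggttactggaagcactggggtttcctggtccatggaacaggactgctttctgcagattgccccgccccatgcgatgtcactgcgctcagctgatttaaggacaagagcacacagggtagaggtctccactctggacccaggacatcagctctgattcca
B2m: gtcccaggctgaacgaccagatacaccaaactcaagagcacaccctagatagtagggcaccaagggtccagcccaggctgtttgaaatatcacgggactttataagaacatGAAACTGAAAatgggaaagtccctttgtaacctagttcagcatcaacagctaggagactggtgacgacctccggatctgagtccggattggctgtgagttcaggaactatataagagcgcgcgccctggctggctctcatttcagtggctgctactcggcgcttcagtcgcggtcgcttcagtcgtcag

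Antigen presentation genes of MHC class I stood higher with them. These load peptides from the cell interior onto surface molecules that T cells read. All 10 listed genes at the floor had ratios above 1 (36.7% of all genes) and 7 were past 1.5-fold higher (4.29% of all genes), with a median ratio of 1.86 and summed levels of 2729 and 1529 CPM. The shared light chain B2m was at 645 CPM against 276, a ratio of 2.34 (2.26 to 2.42), and no other luminal cluster passed 343 CPM. The heavy chains H2-K1 and H2-D1 were at 623 and 842 CPM against 338 and 537 CPM. Their many relatives make single H2 genes uncertain. The immunoproteasome subunit Psmb8 was at 199 CPM against 86.6, Psmb9 at 53.1 against 24.0, and the peptide transporter Tap1 at 21.7 against 11.6. The GAAA core was found in 2 of 12 promoters of this list, those of B2m and H2-T23. Nlrc5, the transactivator of MHC class I, was under the floor, with 16 UMIs or 2.43 CPM against 0.442.

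MHC class II was led by Cd74, the invariant chain that escorts class II molecules, at 150 CPM (141 to 160) against 16.9 CPM, a ratio of 8.88 (8.11 to 9.72). The highest other luminal cluster was 9, at 57.4 CPM. The remaining class II genes were under the floor in both groups, at 15 CPM against 6.89 for H2-Ab1, 6.53 against 3.15 for H2-Aa and 9.11 against 2.73 for H2-DMa. Unlike Cd74, H2-Ab1 and H2-Aa were not highest in cluster 5, since another luminal cluster held 22.9 and 16.8 CPM of them. Their master regulator Ciita had 11 UMIs in cluster 5 (1.67 CPM) and 16 in the other luminal clusters (0.295 CPM). Class II RNA is abundant in immune cells, with 3669 CPM of Cd74 in lymphocytes. The 8 lymphocyte markers were lower in cluster 5 than in the pooled other luminal clusters (ratio 0.6, 0.516 to 0.694), with Ms4a1 at 0. That ratio depends on cluster 9, which held 622 CPM of them, while cluster 5 held 29.6 CPM and cluster 0 as little as 26.2. Cd79a, Cd3e, Trbc2 and Ptprc alone summed to 6.98 CPM in cluster 5 against 6.43. The 9 myeloid markers were higher in cluster 5 (1.21, 1.09 to 1.35), with C1qc at 0. Cells with at least 3 UMIs of Cd79a, Cd3e, Trbc2 and Ptprc were 3.57% of cluster 5 and 1.09% of the other luminal cells. The part of immune cell RNA in the class II level was not tested. With cells thinned to 3000 UMIs, 36.9% of cluster 5 cells (29.6 to 44.7%), 4.24% of other luminal cells and 2.30% of stromal cells had a Cd74 UMI, against 84.5, 28.2 and 5.81% without thinning.

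**Figure D4:**
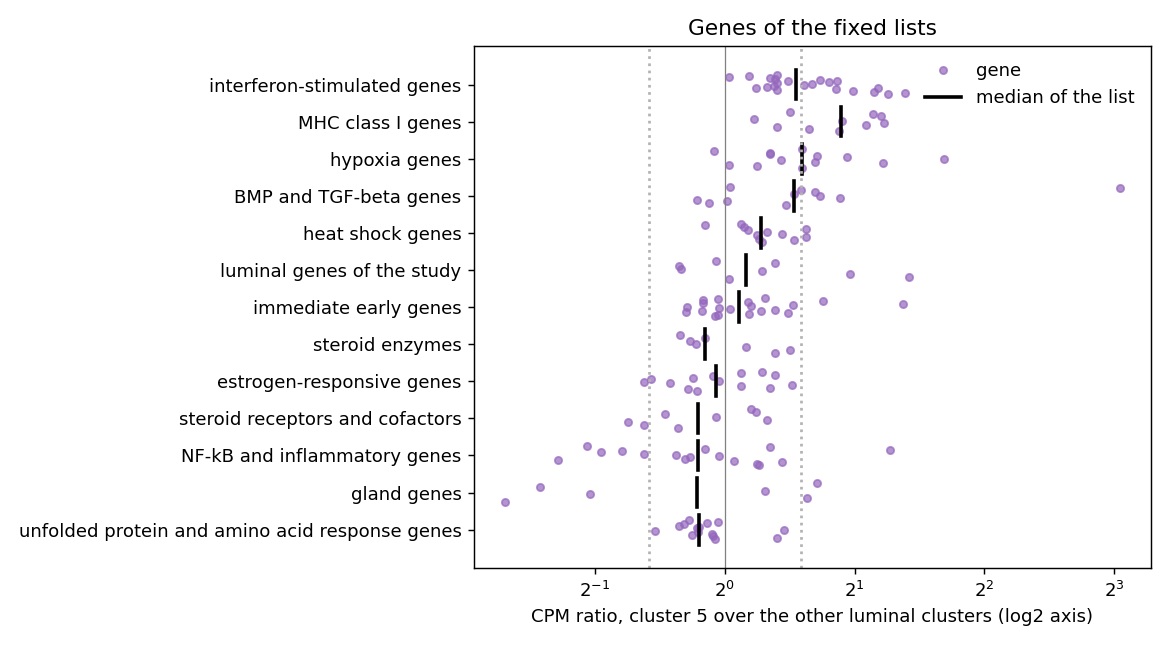
CPM ratio of cluster 5 to the other luminal clusters (log2 axis) for the genes of 13 functional lists that reached 20 CPM in either group, with each gene as a point and the list's median as a black bar. Dotted lines mark 1.5-fold in each direction, and the interferon-stimulated, MHC class I, hypoxia and BMP and TGF-beta lists have medians from 1.45 to 1.86.

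Of 13 genes known to respond to low oxygen, 12 had ratios above 1 and 7 were past 1.5-fold higher, against 36.7% and 4.29% of all genes, with a median of 1.51. Ndrg1, a stress-responsive gene on chromosome 15, led them at 163 CPM (153 to 173) against 50.7. Car9, a surface carbonic anhydrase, was at 84.1 CPM against 36.2 and above every other luminal cluster, of which the highest held 47.3. The vasodilator peptide gene Adm was at 66.4 CPM against 34.6 but reached 101 CPM in another luminal cluster. Vegfa was at 22.9 against 15.2 CPM, while Hif1a itself was at 0.946 (0.869 to 1.03) of the level in the other luminal clusters. Without Ndrg1 the 12 genes had a median of 1.43. The separate list of glycolysis genes did not stand higher. Of its 12 genes at the floor 4 had ratios above 1, against 36.7% of all genes, and the median was 0.960. None of them was past 1.5-fold higher or lower, against 4.29% and 2.31% of all genes.

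Genes of the BMP and TGF-beta pathway, in which ligands act through receptor kinases and Smad proteins on targets such as the Id genes, gave 5 of 11 past 1.5-fold higher (4.29% of all genes) and a median of 1.45. Summed, the list stood at 694 CPM in cluster 5 and 551 CPM in the other luminal clusters, of which cluster 7 held more than cluster 5, at 752 CPM. The targets Id1 and Id3 were at 87.8 and 56.8 CPM against 52.7 and 35.1 CPM. The inhibitory Smad7 was at 56.9 against 37.9 CPM and the activin chain Inhbb at 30.7 against 16.6. The type II receptors Bmpr2 and Tgfbr2 were at ratios of 0.921 and 0.861.

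The 10 genes with the lowest ratios ran from Kap at 0.126 to Cldn10 at 0.330, with the anthrax toxin receptor gene Antxr1 just outside at 0.354. Kap, the kidney androgen-regulated protein gene, was at 75.6 CPM (69.1 to 82.6) in cluster 5 and 599 CPM in the other luminal clusters, which held 116 to 969 CPM. Aoc1, the diamine oxidase that breaks down histamine, was at 39.5 CPM against 271, with clusters 10 and 11 at 1025 and 1175 CPM. Serpina1c, of the alpha-1-antitrypsin family with near-identical members, was at 26.3 CPM against 175, and cluster 11 alone was lower, at 6.91 CPM.

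Msx1, a homeobox factor known for uterine receptivity, was at 10.3 CPM (8.02 to 13.1) against 62.6 CPM, while the other luminal clusters held 43.9 to 105 CPM. Its relative Msx2 differed the other way, at 25.4 CPM against 16.2. The urate oxidase gene Uox was at 53.8 CPM against 226, Serpina9 at 44.9 against 152 and Cldn10, a claudin of tight junctions, at 53.1 against 161. Krt12, a keratin best known from the cornea, was at 18.8 CPM against 62.3 and the protease gene Tmprss11g at 18.1 against 60.6.

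Steroid receptors carry the response of LE to ovarian hormones, and those for estrogen and progesterone were lower in cluster 5, while the glucocorticoid receptor gene Nr3c1 was at 23.4 CPM against 18.6. Esr1, the main estrogen receptor, was at 181 CPM against 233, a ratio of 0.780 (0.735 to 0.828) that did not pass 1.5-fold. The progesterone receptor gene Pgr at 55.9 CPM against 85.8 was past it, and in all 2 of 8 receptor and cofactor genes were past 1.5-fold lower (2.31% of all genes) and none higher, with 3 of the 8 above a ratio of 1. Of 14 estrogen-responsive genes, 1 was past 1.5-fold lower, again Pgr, and none past it higher, against 2.31% and 4.29% of all genes. The median was 0.955, near the 0.953 over all genes. The secreted Lcn2 and Ltf stood at 10290 and 2323 CPM against 8132 and 2691.

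Prap1, an abundant secreted acidic protein of the gland list, was at 989 CPM against 2659, a ratio of 0.372 (0.363 to 0.381), though cluster 11 held as little as 309 CPM. With Prss29 and Sult1d1 it made 3 of 6 genes of that list at the floor past 1.5-fold lower (2.31% of all genes). Napsa and Wnt7b, 2 of the 6, were past it higher (4.29% of all genes), Wnt7b lying on chromosome 15. The gland factor Foxa2 had 11 UMIs in all of cluster 5, or 1.67 CPM. The cytokine receptor Lifr, through which the implantation signal Lif acts and which lies on chromosome 15, was at 102 CPM against 41.6, while its partner Il6st was at 118 against 181.

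Inflammatory genes of the NF-kB group were mixed. The prostaglandin synthase Ptgs2 was at 54.7 CPM against 22.6, but the chemokine Ccl28 at 28.5 against 69.6, Csf3 at 31.1 against 65.1 and the adhesion gene Icam1 at 17.6 against 34.1 were lower, and with Tnfaip3 and Birc3 they made 5 of 16 past 1.5-fold lower and 1 higher, against 2.31% and 4.29% of all genes. Among channels and transporters the water channel Aqp4 was at 152 CPM against 66.2 and the bicarbonate carrier Slc4a4 at 46.9 against 24.4. The zinc carrier Slc39a4, on chromosome 15, was at 604 CPM against 321, and the chloride carrier Slc12a2 was lower, at 141 against 252. Of 10 complement and antimicrobial genes at the floor, 5 had ratios above 1 and the median was 0.980. Complement C2, at 31.0 CPM against 10.8, and clusterin (Clu), at 272 against 164, were past 1.5-fold higher (4.29% of all genes), and the complement inhibitor gene Cd59a, at 28.4 against 44.8, past it lower (2.31%). No gene of the unfolded protein response (15 at the floor) or steroid enzyme list (7) passed 1.5-fold in either direction, which with 4.29% of all genes higher and 2.31% lower is near the share over all genes. Below that size the unfolded protein list lay mostly lower, with a median of 0.872. Of its 15 genes 2 had ratios above 1, against 36.7% of all genes, and these, Atf4 and Creld2, lie on chromosome 15. In the steroid enzyme list 3 of 7 were above 1 and the median was 0.902.

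Cluster 5 was not uniform. In the authors' integrated clustering of CO and DES epithelium 89 of its cells fell in cluster 0, 70 in cluster 1 and 9 elsewhere. The cells in integrated cluster 1 had a median of 34818 UMIs and 8.50% mitochondrial UMIs, and those in integrated cluster 0 had 26646 UMIs and 10.6%. All 22 immediate early genes that reached 20 CPM in either group were at least 1.5-fold higher in integrated 1, against 7.22% of 5636 genes, with a median ratio of 6.22. Egr1 stood at 661 CPM in integrated 1 and 47.0 CPM in integrated 0, Fosb at 521 and 30.9, Klf6 at 1242 and 94.7 and Dusp1 at 362 and 15.4. CO clusters 0 and 1 differed in the same genes, with Egr1 at 816 and 40.1 CPM. The part of depth in this difference was not tested.

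The genes that set cluster 5 apart were found in both groups of its cells, though not all at one level. Ly6a stood at 1568 CPM in integrated 1 and 1583 CPM in integrated 0, and Pla2g2e at 285 and 290 CPM. Cmah was at 92.0 and 33.9 CPM, Basp1 at 122 and 64.8 CPM and Ndrg1 at 217 and 113 CPM, each still above the 2.43, 7.28 and 50.7 CPM of the other luminal clusters. Ifit1 differed the other way, at 110 and 162 CPM. The median ratio of chromosome 15 genes was 1.39 in integrated 1 and 1.37 in integrated 0.

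In DES cells no cluster matched cluster 5 in its chromosome 15 level, since the medians of the 16 DES epithelial clusters against the rest of the DES epithelium lay between 0.963 and 1.04. Single genes were found there at various levels. The pooled DES epithelium held 541 CPM of Cd74, more than cluster 5, and up to 1628 CPM in 1 DES cluster. Cmah was at 45.5 CPM, between 5.18 and 166 CPM by cluster. Peg10 and Fam13a were at 2.32 and 1.54 CPM, far under the 131 and 80.5 CPM of cluster 5, while Cldn10 was at 874 CPM against 53.1. With 1 library a condition these values have no replicate check.

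The sections gave the only replicated comparison, of DES with CO, in which all spots of a section were summed. The study reported a tissue fold in CO section B and limited clusters in DES section B, and mainly used section A of each group. A section mixes all tissues, so fewer cells of a type and less RNA per cell cannot be told apart. The 4 sections held 9117099 to 12506177 UMIs over 1357 to 1834 spots. Of 14098 genes, 747 (5.30%) had a Benjamini-Hochberg adjusted p below 0.05 in the quasi-likelihood fit of edgeR. Of the 25 genes with the highest and lowest ratios in cluster 5, 24 were in the fit, Peg10 being too low, and 3 passed.

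Basp1 stood at 4.48 and 4.62 CPM in CO sections A and B and at 21.7 and 23.7 CPM in DES sections A and B. The groups did not overlap, and Basp1 was higher in DES by 2.11 on the log2 scale (SE 0.22, edgeR adjusted p = 0.0212). Ndrg1 stood at 116 and 101 CPM in CO and at 46.7 and 43.4 CPM in DES, a log2 difference of -1.48 (SE 0.17, edgeR adjusted p = 0.0247). Msx1 stood at 77.7 and 87.1 CPM in CO and at 13.8 and 7.29 CPM in DES, a log2 difference of -3.18 (SE 0.33, edgeR adjusted p = 0.0212). All 3 calls were lost with either DES section left out, where the lone section was assumed to vary as the CO sections do and 14 and 3 genes in all were called. The edgeR adjusted p was then 0.126 and 0.161 for Basp1, 0.215 and 0.227 for Ndrg1 and 0.0557 and 0.0860 for Msx1, without section A and B in turn. The log2 differences moved little, to 2.19 and 2.0 for Basp1, -1.51 and -1.47 for Ndrg1 and -3.68 and -2.83 for Msx1. Over all alternatives the adjusted p ran from 5.87e-07 to 0.161 for Basp1, from 4.32e-07 to 0.227 for Ndrg1 and from 4.74e-16 to 0.0860 for Msx1.

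Others of the 15 highest genes, among them Cmah, Ly6a and Cd74, did not pass in the sections. Cmah ranged over 0.880 and 9.34 CPM in CO and 31.7 and 7.79 CPM in DES, so the groups overlapped (edgeR adjusted p = 0.415). Ly6a was at 520 and 970 CPM in CO and 1008 and 901 CPM in DES, which also overlap (edgeR adjusted p = 0.819). Cd74 was at 170 and 273 CPM in CO and 872 and 2317 CPM in DES, which do not overlap but missed the threshold (edgeR adjusted p = 0.0687). Over its alternatives the adjusted p for Cd74 ran from 1.62e-06 with DESeq2 to 0.188 without DES section B, and it passed with DESeq2, in the 15% of spots richest in epithelial markers (0.0260 by edgeR) and with the sections blocked by letter (0.0392 by edgeR). Kap stood at 193 and 2531 CPM in CO and at 16.2 and 35.8 CPM in DES, so that DES was lower in both sections while the CO sections themselves differed widely (log2 difference -5.88, SE 1.39, edgeR adjusted p = 0.0855). Among the alternatives that kept 2 sections a group, Kap passed with DESeq2 (adjusted p = 0.00166) and with the block (0.0456 by edgeR). It missed the threshold in the others of these. The log2 difference of Kap was -6.77 without CO section A and -3.11 without CO section B.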

How the data were processed

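Single cells of 1 CO and 1 DES library (10x Chromium 3' v3) and 4 Visium sections were used. The authors deposited counts of UMIs per gene and cell or spot, not normalized, and named Cell Ranger 3.0.1, Space Ranger 1.2.2, bcl2fastq 2.20.0.422 and the mm10 build in the submitters' processing notes. Their methods give removal of doublets and clustering with Seurat, and their cluster numbers were used as given. Cells of a cluster were summed, scaled to CPM and given exact Poisson intervals, and ratios exact conditional intervals, all for counting error only at 95%. Ratios were read for genes with at least 20 CPM in either group, and 1.5-fold is a size, not a test. Named genes were the 15 highest and 10 lowest ratios at 50 CPM, the 10 most above the next luminal cluster, the study's LE genes and members of functional lists. The members and lists were chosen with earlier results of these data known. Shares of cells were taken after thinning to 3000 UMIs (17 of 1740 other luminal and 23 of 1326 stromal cells were shallower and left out, none of cluster 5). Gene positions came from GENCODE M21 and promoters from RefSeq, both on GRCm38. Of 5663 genes, 5417 (95.7%) were placed on a chromosome.

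Section sums were compared with edgeR 4.0.16 (TMM, quasi-likelihood, Benjamini-Hochberg), with 2 sections a group and the spread shared over genes. DESeq2 1.42.0 was an alternative. Computation used R 4.3.3 and Python 3.11.15 and was tested on simulated data. Values of a few list members are not reported here.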

Additional observations from a re-analysis of the deposited data

How the results depend on the processing

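Gene ratios were recomputed for 32 genes, those with the highest and lowest ratios, those most above the next luminal cluster and the study's LE genes, and not on the other list members. Of the 26 of these past 1.5-fold in cluster 5, 26 stayed past it under all 5 alternatives, and of the 32 genes 31 kept their direction (Adgrg7 moved between 0.948 and 1.01). Of 240 recomputed sums over the 48 lists, 59 moved beyond the counting interval, 31 of them with the 8 other luminal clusters weighted equally, and 7 (of 6 lists) crossed a ratio of 1, none of them of the interferon, MHC, hypoxia or BMP and TGF-beta lists. The lymphocyte marker sum moved to 0.287 with equal weights and 0.946 without cells holding markers of 6 other types. Shares of cells with a UMI moved in 55 of 64 recomputed values, as for Cmah at 11.3% with 3000, 20.2% with 5000 and 47.0% with all UMIs. The median of chromosome 15 genes stayed between 1.36 and 1.39. The 243 higher and 131 lower genes became 115 and 53 at a floor of 50 CPM, 484 and 434 at 5 CPM, and 81 and 34 at a ratio of at least 2, and the lower genes 248 against all other CO epithelial clusters. With chromosome 15 left out of the totals, chosen after seeing the data, they were 276 and 123. Leaving out cells with at least 3 UMIs of another type's markers gave no value, since globin RNA removed every cell. Without cells holding markers of 6 other types, also chosen after seeing the data, 157 of 168 cells remained.

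Sections A and B of the 2 groups share only a letter (correlations of deviations -0.01 and -0.01). The block by letter made 527 calls against 747, with Cd74, Kap and Krt12 gained among the named genes (edgeR adjusted p 0.0392, 0.0456 and 0.0428). DESeq2 made 1791. Without 1 section the calls ranged from 3 (without DES section B) to 2819 (without CO section A), with 14 without DES section A and 2336 without CO section B. Log2 differences that turned, none past the threshold in the main comparison, were Ly6a at -0.33 in the 15% of spots richest in epithelial markers and Srgn at -0.00416 with the block. With each section left out in turn the ranges were -0.21 (without CO A) to 0.64 for Ly6a, -0.17 (without DES A) to 0.13 for Srgn, with -0.00313 without CO A, -2.73 to 0.72 (without CO A) for Pla2g2e, -4.99 to 0.35 (without CO A) for Aoc1, -1.15 to 1.37 (without CO B) for Serpina1c, with 0.10 without DES A, and -1.02 to 0.34 (without CO A) for Uox, with 0.02 without DES A. The cause was not tested. One library, 2 pooled mice and a median of 30226 UMIs a cell limit what cluster 5 can show.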

Other observations

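Across the 15 CO epithelial clusters and 20 chromosomes, the next highest median ratio after chromosome 15 in cluster 5 (1.37) was that of chromosome 3 in cluster 12 (1.31), followed by chromosome 16 in the same cluster (1.16). All chromosomes of cluster 12 lay between 1.07 and 1.31 and most near 1.10, whereas the others of cluster 5 lay between 0.908 and 0.975. Cluster 12 held 71 cells.

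Of the 6 cluster 5 cells with a chromosome 15 share at or below the 95th percentile of the other luminal cells, Cmah stood at 55.7 CPM (28.8 to 97.3, from 12 UMIs) and Ifi27l2a at 227 CPM (168 to 301), while Basp1 had no UMI (upper limit 17.1 CPM). Basp1 lies on chromosome 15, so its level was in part set by how these cells were picked. Msx1 was at 60.3 CPM (32.1 to 103), against 10.3 CPM in the cluster as a whole.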
